A study of Mus musculus with 8 samples.

Results

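The interleukin-6 family of cytokine signaling was followed through 10 genes of the LV transcriptome of angII-infused mice, taken from the count table by their gene names: the ligands *Il6*, *Osm* and *Lif*, the receptors *Il6st*, *Il6ra*, *Osmr*, *Lifr* and *Il11ra1*, the transcription factor *Stat3* and its feedback inhibitor *Socs3*. The table lists 46040 genes, and 13542 of them had a CPM (counts scaled to 1e6 per library) of at least 1 in at least 2 libraries and were tested. Of the 10 genes, 7 passed this filter, and the 3 ligands did not. All animals were male mice of the strain C57BL/6, aged 5 to 7 months, that received 0.1 mg/kg/h of angII through osmotic minipumps and whose LVs were collected on day 14. One group carried the genotype VEGFR-1 TK-/-, an *Flt1* allele present in all cells from which the intracellular tyrosine kinase domain is missing while the part that binds ligand is kept, and the other group consisted of littermate controls. Mice of both groups received angII, no library without angII was analysed here, and only mice that survived to day 14 could be sampled.

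Each group had 4 libraries, with 12349639 to 16239670 counts per library in one and 11449137 to 13505888 in the other. The labels contradict each other on which group is which, since the library name and genotype tag give one genotype and the sample title the opposite one. The groups were formed here by the library names (WT2 against dVEGFR1TK2) and go by the names control-tagged and TK-tagged, the latter short for a VEGFR-1 TK-/- tag. Every difference below is TK-tagged minus control-tagged, and its sign turns around if the titles are right. The targeted gene *Flt1* was at 56.9 to 84.3 normalized CPM (CPM scaled with TMM factors) in the control-tagged libraries and at 144 or more in every TK-tagged library, which does not settle the labels because a whole-gene count does not show the missing domain. Although the library names hold the word cardiomyo, markers of other cells of the heart were present in every library, with 453 to 1110 normalized CPM summed over 5 fibroblast markers and 278 to 551 over 8 markers of monocytes and macrophages. The 6 cardiomyocyte markers summed to 55500 to 89500 normalized CPM, against 3.68 to 5.90 for 3 atrial and 1.92 to 3.09 for 4 skeletal muscle markers.

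Cytokines of the interleukin-6 family share gp130, the product of *Il6st*, as the signal-transducing chain of their receptors. Each cytokine reaches gp130 through a partner: interleukin-6 through the receptor encoded by *Il6ra*, interleukin-11 through that of *Il11ra1*, leukemia inhibitory factor through that of *Lifr* and oncostatin M through that of *Osmr*. The receptor complexes activate Janus kinases, which phosphorylate STAT3, and STAT3 induces *Socs3*, whose product binds gp130 and ends the signal. In the heart, this pathway is known for its part in cardiomyocyte hypertrophy and survival under load, and oncostatin M is known for the dedifferentiation of cardiomyocytes.

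STAT3 binds DNA at sites of the form TTCNNNGAA, and these letters, which read the same on both strands, were searched in the RefSeq promoter windows of GRCm38.p6 (250 bases before to 50 bases after a start site). The sequences are shown because they mark which genes of the pathway hold such letters next to their start. Windows were available for 9 of the 10 genes, 11 windows in all, and only that of *Socs3* held a match (9.09% of the 11). Of all 32851 windows, 8.30% held one, and of the 12822 windows of genes tested, 6.86%. Of 22 further genes known to respond to gp130 and STAT3, 18 had a window. Those of *Fgl2*, a procoagulant and immunoregulatory protein, and *Reg3b*, a secreted lectin, held a match. These were 2 of the 22 windows of this list, again 9.09%, so both shares were near that of all windows. In the following sequences, each read 5′ to 3′ on the strand of its gene, the match is in capitals.
*Socs3* (chr11:117969502-117969530, minus strand): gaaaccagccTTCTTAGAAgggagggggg
*Fgl2* (chr5:21372627-21372655, plus strand): gcccgcccttTTCTGGGAActcagaacgc
*Reg3b* (chr6:78370746-78370774, plus strand): agcctgttctTTCTTGGAAactctttgag
The match of *Socs3* starts 154 bases before the RefSeq start site, inside the bounds that GENCODE M21 gives the gene but in none of its exons. The matches of *Fgl2* and *Reg3b* start 36 and 129 bases before theirs. *Reg3b* had 1 count over all 8 libraries, whereas *Socs3* and *Fgl2* were measured in each of them. A match of letters is not a site shown to be bound.

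Levels of different genes were compared per kilobase of exon (RPKM, computed from normalized CPM and the exon bases of GENCODE M21). Among the genes of the family, *Stat3*, *Il6st* and *Il11ra1* were the most abundant, and the 3 ligands the least. *Stat3* had a mean of 21.6 RPKM over the 8 libraries (19.3 to 24.0), *Il6st* of 18.8 (16.1 to 20.3) and *Il11ra1* of 17.3 (15.2 to 20.4). *Stat3* was above *Il6st* in 8 of 8 libraries although their ranges overlapped, and *Il6st* was above *Il11ra1* in 6 of 8. The next group was separated from these, with *Il11ra1* 3.62 times as high as *Socs3*. *Socs3* (4.78 RPKM), *Lifr* (4.67 RPKM) and *Osmr* (3.48 RPKM) had overlapping ranges. *Socs3* was above *Lifr* in 3 of 8 libraries, so that these neighbours had no stable order, and *Lifr* was above *Osmr* in 7 of 8. *Il6ra* ranged from 0.668 to 1.08 RPKM, below *Osmr* in all libraries without overlap. The gp130 chain was thus measured at a far higher level than the chain that makes it a receptor for interleukin-6. *Osm*, *Il6* and *Lif* had means of 0.126, 0.108 and 0.0873 RPKM, with ranges that overlapped among the 3 ligands and lay below that of *Il6ra*.

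**Figure D1:**
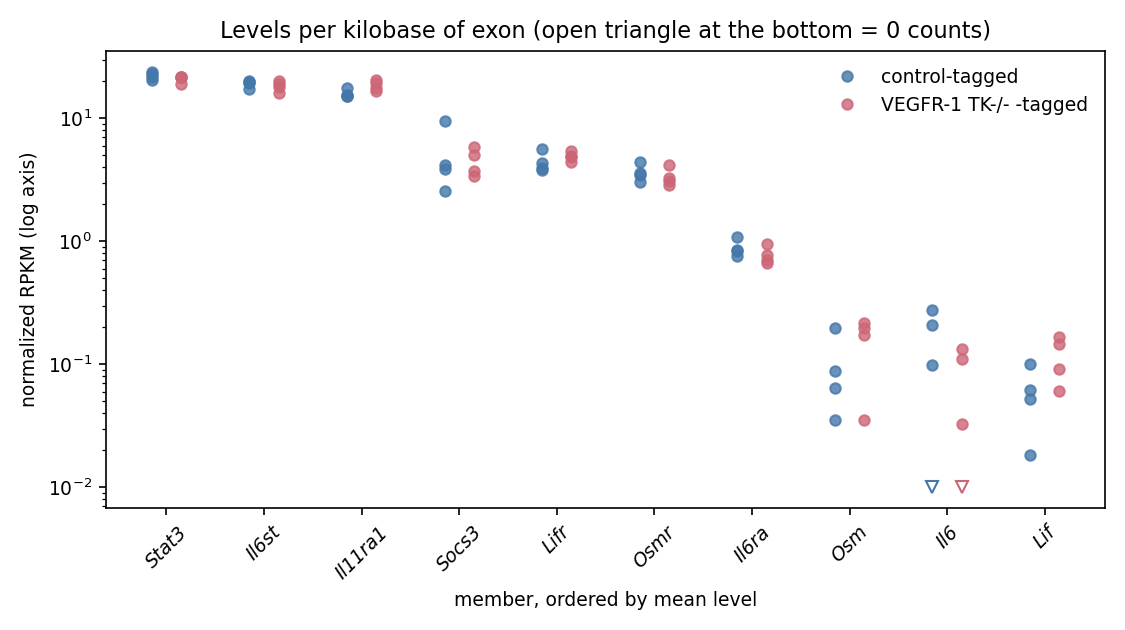
Normalized RPKM of each of the 10 genes in each library (points, 4 per group, log axis), ordered from the highest mean to the lowest, with open triangles for the libraries in which *Il6* had no count. Stat3, Il6st and Il11ra1 lie between 15.2 and 24.0 RPKM, while Osm, Il6 and Lif stay below 0.3 in every library.

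Between the genotypes, none of the 7 tested genes of the family passed the test. Their log2 fold changes lay between −0.18 and 0.22, 2 above and 5 below 0, with a median of −0.09 against a median of 0.00 over all genes tested. The median size of the change was 0.14 in the family and 0.13 over all genes. A call required an FDR below 0.1 together with a log2 fold change of 0.585 or more in either direction. By edgeR's quasi-likelihood test, 0 of 7 were called, against 0.00738% of all genes tested, a share that stands for 1 gene, *Flt1*. An unadjusted p under 0.05 was reached by 1 of 7, *Il11ra1*, where 8.96% of all genes did so, 449 of them higher and 764 lower in the TK-tagged libraries. In 0 of 7 did the libraries of the groups not overlap, against 4.98% of all genes. The likelihood ratio test of edgeR, used in the study, and DESeq2 also called 0 of 7, against 53 and 32 of all genes tested. Of the 7, 0 and 1 had an unadjusted p under 0.05 by these tests. The share of all genes at such a p is given here for the quasi-likelihood test only.

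The intervals of the differences limit how large a change could have gone unseen. The 95% intervals of the log2 fold changes stayed within the fold limit of 0.585 in either direction for *Il6st* (−0.27 to 0.16), *Stat3* (−0.28 to 0.11), *Osmr* (−0.42 to 0.19), *Lifr* (−0.14 to 0.42), *Il11ra1* (0.01 to 0.43) and *Il6ra* (−0.55 to 0.19). That of *Socs3* did not, with −0.90 to 0.58. For the 3 ligands no such interval was computed.

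**Figure D2:**
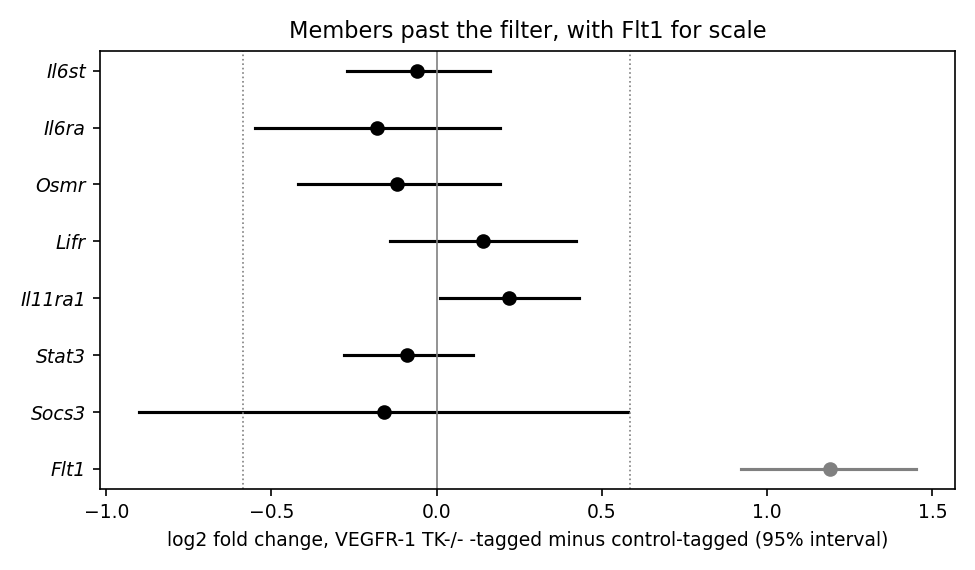
Log2 fold change (point) and 95% interval (line) of the 7 tested genes of the family and of Flt1, with dotted lines at the fold limit of 0.585. The intervals of 6 genes lie inside the limits, that of Socs3 reaches −0.90, and that of Flt1 lies outside with its estimate at 1.19.

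The 3 ligands were covered by few reads. *Il6* (ENSMUSG00000025746, GRCm38 chromosome 5, 30013114 to 30019981) had 9, 7, 0 and 3 counts in control-tagged replicates 1 to 4. It had 4, 3, 0 and 1 counts in the TK-tagged replicates 1 to 4. The groups overlapped, and replicate 3 of each group had no count, which allows a level of up to 0.185 CPM of raw counts in the control-tagged and 0.222 in the TK-tagged library. The summed counts of 19 and 8 came to 0.348 CPM (95% Poisson interval 0.210 to 0.544) and 0.163 CPM (0.0703 to 0.321), where the intervals cover counting error only. The difference of the mean log2 normalized CPM was −0.55 (exact 2-sided permutation test, p = 0.457). With 4 libraries in each group this test cannot give a p below 0.0286. The size of the difference depended on the handling of low counts, being −0.76 with a prior count of 0.5 in place of 2 and −1.05 (SE 0.82, FDR = 0.733) in the edgeR fit without the filter.

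*Osm* (ENSMUSG00000058755, chromosome 11, 4236420 to 4241026), the gene of oncostatin M, had 6, 2, 3 and 1 counts in the control-tagged and 6, 5, 5 and 1 counts in the TK-tagged replicates 1 to 4. Replicate 4 was the lowest of both groups with 1 count, and the groups overlapped. The difference of the mean log2 normalized CPM was 0.43 (exact permutation test, p = 0.429). *Lif* (ENSMUSG00000034394, chromosome 11, 4257557 to 4272514), the gene of leukemia inhibitory factor, is a near neighbour of *Osm* on the same strand. It had 3, 6, 4 and 1 counts in the control-tagged and 9, 3, 8 and 5 counts in the TK-tagged replicates 1 to 4. The highest counts were those of TK-tagged replicates 1 and 3, whereas replicate 2 of that group was level with control-tagged replicate 1. Its sums of 14 and 25 counts corresponded to 0.257 (0.140 to 0.431) and 0.509 CPM (0.329 to 0.752), with a difference of 0.72 in mean log2 normalized CPM (exact permutation test, p = 0.143). No difference was detected in these 3 ligands, whose low counts limit what could be seen.

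The shared receptor chain *Il6st* (ENSMUSG00000021756, chromosome 13, 112464070 to 112510086) was at 218, 214, 224 and 193 normalized CPM in control-tagged replicates 1 to 4. It was at 225, 179, 201 and 211 normalized CPM in TK-tagged replicates 1 to 4. The highest and the lowest library were both TK-tagged, so that one group enclosed the other. The means were 212 ± 13.4 and 204 ± 19.5 normalized CPM (mean ± SD, n = 4 in each), which gave a log2 fold change of −0.06 (SE 0.10, FDR = 0.893). Only 1.26-fold separated the highest from the lowest of the 8 libraries.

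*Il6ra* (ENSMUSG00000027947, chromosome 3, 89864059 to 89913196) encodes the chain that binds interleukin-6. It was at 6.51, 7.19, 7.40 and 9.36 normalized CPM in the control-tagged and at 5.77, 6.75, 6.08 and 8.29 normalized CPM in the TK-tagged replicates. Replicate 4 was the highest of both groups, and the groups overlapped over most of their range. This gave a log2 fold change of −0.18 (SE 0.17, FDR = 0.783). With 71 to 117 counts per library, this gene was less well covered than the other receptors.

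*Osmr* (ENSMUSG00000022146, chromosome 15, 6813577 to 6874969), the oncostatin M receptor, had 41.8, 53.4, 37.0 and 43.5 normalized CPM in the control-tagged replicates. The TK-tagged replicates had 50.3, 37.2, 34.7 and 39.6. One library in each group stood above the others, replicate 2 among the control-tagged and replicate 1 among the TK-tagged, and the groups overlapped. The means of 43.9 ± 6.87 and 40.4 ± 6.87 normalized CPM (mean ± SD, n = 4 in each) gave a log2 fold change of −0.12 (SE 0.14, FDR = 0.835). *Lifr* (ENSMUSG00000054263, chromosome 15, 7090614 to 7197489) lies beside *Osmr* on the other strand and encodes the receptor of leukemia inhibitory factor. Its values were 41.1, 46.6, 42.9 and 61.2 normalized CPM in the control-tagged and 47.8, 53.0, 58.3 and 52.0 in the TK-tagged libraries. Control-tagged replicate 4 was the highest of all libraries, and the other 3 control-tagged libraries were below all TK-tagged ones. The log2 fold change was 0.14 (SE 0.13, FDR = 0.769), and without control-tagged replicate 4 it was 0.28 (FDR = 0.486), in neither case called. The estimates for *Osmr* and *Lifr* thus had opposite signs, each lying within about its error of 0.

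*Il11ra1* (ENSMUSG00000073889, chromosome 4, 41699989 to 41769474), the interleukin-11 receptor, came nearest to a difference. It was at 79.6, 67.9, 67.9 and 69.7 normalized CPM in the control-tagged replicates 1 to 4. The TK-tagged replicates 1 to 4 were at 91.3, 85.9, 79.6 and 75.3 normalized CPM. Control-tagged replicate 1 lay among the TK-tagged libraries, while the other 3 were below all of them. The means were 71.3 ± 5.63 and 83.0 ± 7.04 normalized CPM (mean ± SD, n = 4 in each), which gave a log2 fold change of 0.22 (SE 0.09). The unadjusted p of 0.0392 gave an FDR = 0.535 over all genes, and the exact permutation test gave p = 0.0857, so the difference did not pass. Over 16 alternative fits the unadjusted p ran from 0.0201 to 0.123, and it was above 0.05 without control-tagged replicate 2, 3 or 4 and without TK-tagged replicate 1, 2 or 3. The paralog *Il11ra2* had no count in any library, and how the counting treated reads that align to both is not given in the sources used here. *Il11ra1* also shares 8 exon bases with a gene on the other strand, which had 642 counts over the 8 libraries. With the other genes that it overlaps it shares no exon bases.

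**Figure D3:**
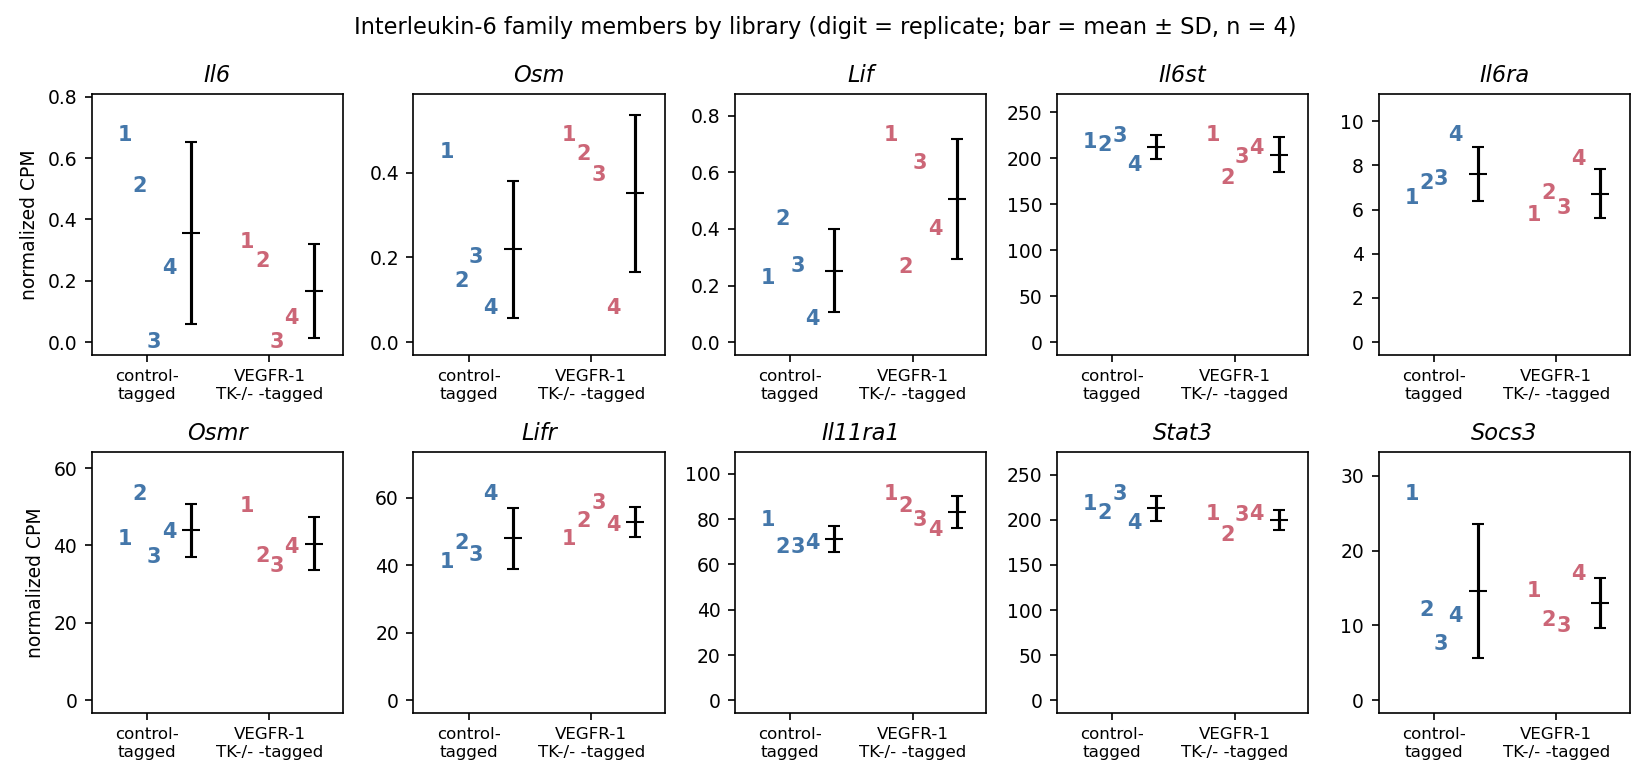
Normalized CPM of the 10 genes in each library, drawn as the replicate digit, with the mean and SD (n = 4) of each group beside it. In no panel are the groups apart, and control-tagged replicate 1 stands at 27.6 in the panel of Socs3.

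The transcription factor *Stat3* (ENSMUSG00000004040, chromosome 11, 100885098 to 100939540) was the steadiest gene of the family, with a 1.25-fold range over the 8 libraries. It was at 217, 208, 229 and 196 normalized CPM in the control-tagged and at 206, 183, 205 and 206 in the TK-tagged replicates. The groups overlapped, TK-tagged replicate 2 being the lowest library. The difference was −0.09 on the log2 scale (SE 0.09, FDR = 0.809). These are RNA levels, and the phosphorylation through which STAT3 acts is not measured by them. *Stat3* shares 72 exon bases with *Stat5a*, which is read from the other strand and had a log2 fold change of 0.10 (FDR = 0.800).

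*Socs3* (ENSMUSG00000053113, chromosome 11, 117966079 to 117970047), the inhibitor that STAT3 induces and the gene with the promoter match shown above, varied most among the tested genes of the family. It was at 27.6, 12.1, 7.47 and 11.2 normalized CPM in control-tagged replicates 1 to 4, from 369, 167, 111 and 140 counts. It was at 14.6, 10.7, 9.88 and 16.9 normalized CPM in TK-tagged replicates 1 to 4. The highest and the lowest library were both control-tagged, 3.70-fold apart, and enclosed the whole other group. The SD was 61.0% of the mean in the control-tagged and 25.5% in the TK-tagged libraries, against 6.58% and 5.54% for *Stat3*. The log2 fold change was −0.16 (SE 0.34, FDR = 0.917). Its sign rested on control-tagged replicate 1, since without this library it was 0.34 (FDR = 0.657), not called either.

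The genes whose pattern over the 8 libraries was most like that of *Socs3*, by the mean absolute difference of standardised log2 normalized CPM, were *Elavl1* (0.240), *Ube2n* (0.307) and *Spata5* (0.308), where the median over 13541 genes was 1.07. *Elavl1* encodes an RNA-binding protein and *Ube2n* a ubiquitin-conjugating enzyme. Control-tagged replicate 1 was the highest and control-tagged replicate 3 the lowest library in each of these 3 genes, as in *Socs3*, but over a much narrower span, from 43.2 to 52.1 normalized CPM in *Elavl1*. The 3 genes were picked for this likeness over the same libraries, so the shared order follows largely from the choice. How near the closest of so many genes would come by chance was not tested. For *Osmr* the most alike genes were *Adpgk* (0.141), *Sat1* (0.190) and *Spi1* (0.204), with a median of 1.06. *Adpgk* encodes a glucokinase that uses ADP, *Sat1* a polyamine acetyltransferase and *Spi1* the transcription factor PU.1 of myeloid cells. The tested genes of the family were not among the closest to *Socs3*, the nearest being *Il6st*, at place 4084 of 13541. The closest to *Osmr* was *Il6st* too, at place 4947.

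**Figure D4:**
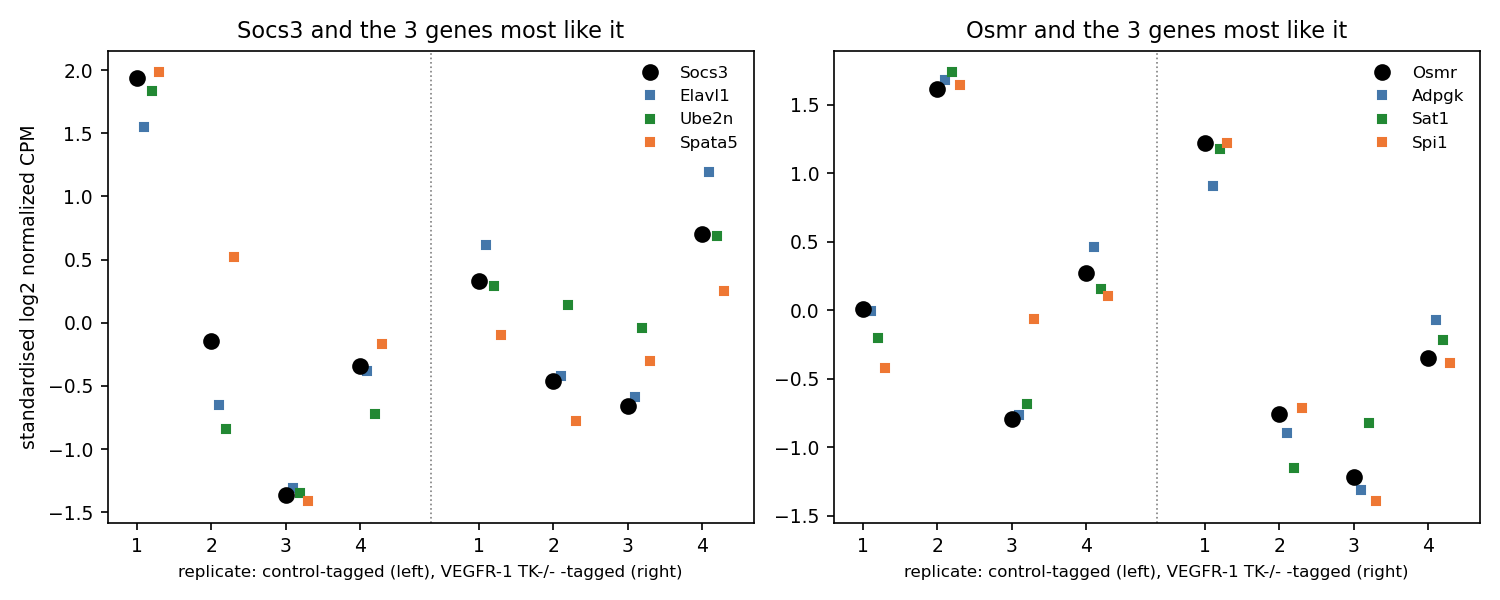
Standardised log2 CPM (library value minus the mean of the 8 libraries, divided by their SD) of Socs3 and Osmr (black) and of the 3 genes most like each (squares), with control-tagged replicates to the left of the dotted line. Socs3 peaks in control-tagged replicate 1 and Osmr in control-tagged replicate 2 and TK-tagged replicate 1.

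Around the 10 genes, 52 further genes of the pathway were listed, of which 42 were tested, 9 did not pass the filter and 1, *Clcf1*, was not analysed here. No gene of these lists was called by edgeR's quasi-likelihood test, 4 of 42 had an unadjusted p under 0.05, all lower in the TK-tagged libraries, and the groups did not overlap in 1 of 42. These shares of 9.52% and 2.38% were near and below those over all genes tested, 8.96% and 4.98%. The median log2 fold change was −0.02. The likelihood ratio test and DESeq2 also called none of the lists, against 53 and 32 of all genes tested. By these tests 4 and 5 genes of the lists had an unadjusted p under 0.05. The quasi-likelihood count of 4 moved with single libraries. It was 0 without control-tagged replicate 2, 1 without TK-tagged replicate 2 and 2 without TK-tagged replicate 3. With any other library left out it was 5. The share of all genes at such a p in these fits is not given here, so the moves cannot be read as particular to the lists.

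Among the other ligands, 3 of 9 were tested. *Ctf1*, the gene of cardiotrophin-1, had a mean level of 2.22 RPKM over the 8 libraries, above those of the 3 ligands of the family described earlier. It was at 3.58 ± 0.976 normalized CPM in the control-tagged and 4.53 ± 0.844 in the TK-tagged libraries (mean ± SD, n = 4 in each; log2 fold change 0.35, FDR = 0.674). *Il11*, the ligand of the product of *Il11ra1*, had 10 counts in all 8 libraries together.

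Of the other receptors and their sheddase, *Adam17*, the protease that releases the interleukin-6 receptor from the membrane, was at 57.5, 62.4, 58.4 and 53.7 normalized CPM in the control-tagged and at 50.1, 43.1, 50.6 and 51.7 in the TK-tagged replicates. Its groups did not overlap. The log2 fold change was −0.25 (SE 0.09, unadjusted p = 0.0191, FDR = 0.492), so the difference did not pass over all genes. *Il27ra*, which encodes a receptor chain that pairs with gp130, had a log2 fold change of −0.11 (FDR = 0.886).

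The Janus kinases, STATs and adaptors were nearly level between the groups, with log2 fold changes of the 9 genes between −0.12 and 0.10. An unadjusted p under 0.05 was reached by 0 of 9, where 8.96% of all genes tested did so. The most abundant per length were *Ptpn11*, the phosphatase and adaptor SHP2 (47.2 RPKM, log2 fold change −0.02, FDR = 0.974), and *Jak1*, the kinase bound to gp130 (20.4 RPKM, log2 fold change −0.06, FDR = 0.864). The 7 inhibitors likewise lay between −0.07 and 0.16, with 0 of 7 at an unadjusted p under 0.05. *Cish* (33.2 RPKM) and *Socs2* (5.89 RPKM), feedback inhibitors known for STAT5, had log2 fold changes of 0.09 (FDR = 0.865) and 0.16 (FDR = 0.755).

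The genes known to respond to gp130 and STAT3 spread more widely, from −0.77 to 0.28. Of the 20 tested, 9 were above and 11 below 0, with a median of −0.10. The median size of the change was 0.20, against 0.13 over all genes tested. The lowest estimate was that of *Hp*, which had 14 to 105 counts per library (SE 0.52, FDR = 0.692). *Bcl3*, a nuclear partner of NF-κB, was at 20.9, 16.0, 12.6 and 13.0 normalized CPM in the control-tagged and at 13.7, 10.2, 11.5 and 12.5 in the TK-tagged replicates. As in *Socs3*, control-tagged replicate 1 was the highest library. The log2 fold change was −0.38 (SE 0.17, unadjusted p = 0.0473, FDR = 0.553). *Fgl2*, which holds a promoter match, was at 55.0, 81.2, 61.9 and 67.8 and at 60.0, 33.1, 38.9 and 61.5 normalized CPM, with overlapping groups and a log2 fold change of −0.46 (SE 0.19, unadjusted p = 0.0373, FDR = 0.530). The most abundant response genes, *Mt1*, a metallothionein, and *Vegfa*, a ligand of VEGFR-1 itself, had log2 fold changes of 0.14 (FDR = 0.744) and 0.23 (FDR = 0.559). *Vegfa* was at 496 to 567 normalized CPM in the control-tagged and at 563 to 698 in the TK-tagged libraries, an overlap of 1 library on each side.

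**Figure D5:**
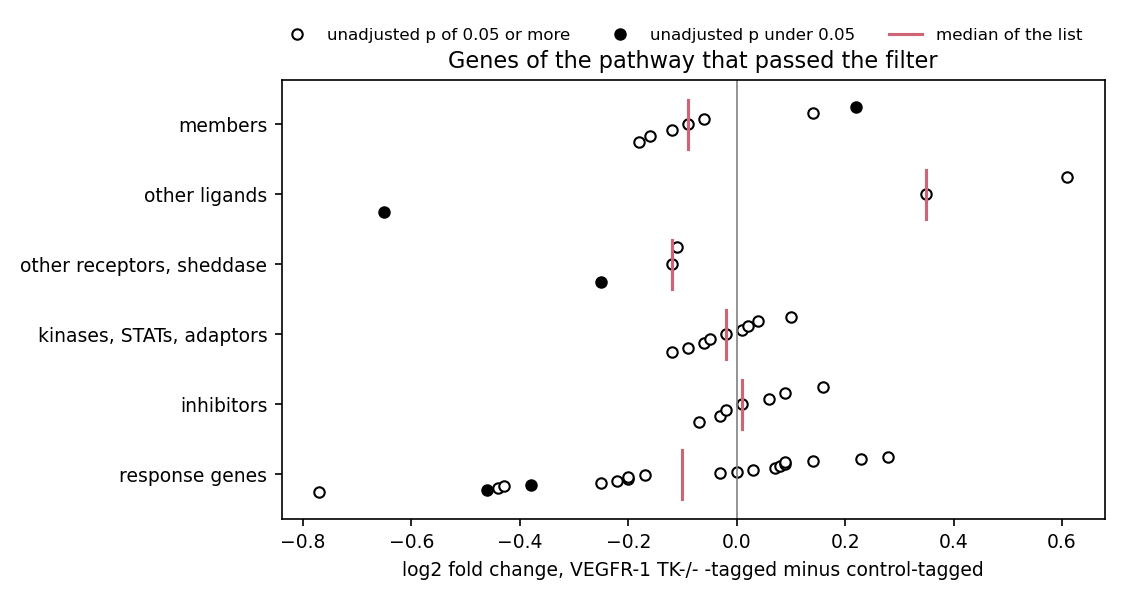
Log2 fold change of the tested genes of the family and of 5 lists of further pathway genes (circles, filled where the unadjusted p is under 0.05), with the median of each list as a red line. The kinases, STATs, adaptors and inhibitors lie within 0.16 of 0, and the filled circles of the 5 further lists lie to the left of 0.

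The cells that make and receive these cytokines can differ between samples of LV, and in bulk tissue fewer cells of a type and less RNA per cell cannot be told apart. All 4 markers of mural cells had an unadjusted p under 0.05, all lower in the TK-tagged libraries, and their summed level was 859 to 1340 normalized CPM in the control-tagged against 602 to 855 in the TK-tagged libraries. None of them passed the FDR (lowest FDR = 0.442), and over all genes tested 8.96% had such a p, 764 of 1213 in the lower direction. Of 5 endothelial markers 3, and of 8 markers of monocytes and macrophages 2, had an unadjusted p under 0.05, all of them lower, with none called. The cardiomyocyte markers leaned the other way, with 5 of 6 higher, 1 lower and a median log2 fold change of 0.18. Only 1 of these 6, a higher one, had an unadjusted p under 0.05, and none was called. The monocyte and macrophage markers summed to 421 to 551 and 278 to 425 normalized CPM. For the 5 fibroblast markers, which had 0 genes at an unadjusted p under 0.05, the sums were 760 to 1110 and 453 to 975. *Osmr*, the fibroblast sum and the monocyte and macrophage sum had the same highest library, control-tagged replicate 2, and the same lowest, TK-tagged replicate 3. *Socs3* did not share this order, its highest library being control-tagged replicate 1. The sums weigh abundant markers most, and several single markers in both of them had another highest library. The neutrophil markers, of cells known to make oncostatin M, summed to 7.20 to 11.6 and 6.93 to 14.4 normalized CPM, and the T cell markers to 2.29 to 4.12 and 2.23 to 7.72. The part of these cells in the values of the family was not tested.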

How the data were processed

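RNA of 8 LVs was sequenced. The authors trimmed reads with Trim Galore 0.4.4, aligned them to GRCm38 with STAR 2.5.4b and assigned them to genes with featureCounts. They deposited whole-number counts per gene without normalization. Strand and multiple alignments in the counting are not given in the sources used here, and the labels name depletion of ribosomal RNA where the study's methods name poly-A selection. Both settings could move reads between overlapping genes and paralogs.

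The 8 count columns were used as deposited. The filter (CPM of 1 or more in 2 or more libraries), the TMM factors (0.917 to 1.12) and the thresholds follow the study. Differences were tested across all genes by the quasi-likelihood method of edgeR 4.0.16 in R 4.3.3, with Benjamini-Hochberg adjustment (FDR). SE is the absolute log2 fold change divided by the square root of F, and the 95% interval uses the degrees of freedom of the test. Log2 normalized CPM has a prior count of 2. The exact permutation test is 2-sided and unadjusted. The test was tested on simulated data. Also run were the likelihood ratio test, DESeq2 1.42.0, other size factors, filters, thresholds and dispersions, each library left out and a replicate block. At a CPM of 1 a gene had 11 to 16 reads.

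The 10 genes, the lists and the tests were chosen with earlier results of these data known. Named are the 10 genes, *Flt1*, pathway genes with an unadjusted p under 0.05 or among the 2 highest per length of their list, and the 3 genes most like *Socs3* and *Osmr*. One gene that this rule names is not reported here. *Il11*, *Il11ra2*, *Reg3b*, *Stat5a*, *Socs1* and *Hp* were named after their values were seen. Promoter windows came from RefSeq, and exon lengths from a later GENCODE release than that of the counts. The libraries of a group were taken as LVs of separate mice, and the tests weigh the difference between the groups against the spread between such libraries. Libraries of 1 group differed by more than sampling noise (chi-square per degree of freedom of 7.17 or more).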

Additional observations from a re-analysis of the deposited data

Results flagged for a closer look

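In each of the 14 sets of 4 libraries formed by the 7 tested genes and the 2 groups, the highest and the lowest library were compared with their neighbours, and 2 libraries stood further out than Dixon's limit. *Il11ra1* was at 79.6 normalized CPM in control-tagged replicate 1, above the other 3 control-tagged libraries at 67.9 to 69.7. *Stat3* was at 183 normalized CPM in TK-tagged replicate 2, below the other 3 libraries of that group at 205 or 206. About 5% of such sets are marked by chance. *Socs3* in control-tagged replicate 1 stayed under the limit.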

How the results depend on the processing

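In all 18 alternatives, 0 genes of the family and 0 genes of the pathway lists were called. Among these alternatives, the FDR limit of 0.05 is stricter than the main rule and could not have called more. The log2 fold changes of the 7 tested genes kept their sign and stayed uncalled in 111 of 112 comparisons, the exception being *Socs3*, at 0.34 without control-tagged replicate 1 (−0.39 to −0.05 with another library left out). The cause was not tested. The unadjusted p of *Il11ra1* was under 0.05 in 7 of 16 alternatives, with FDR from 0.431 to 0.941. Over all genes, 1 was called, against 53 by the likelihood ratio test, 32 by DESeq2, 23 with no filter on low counts, and 1 to 3 with 1 library left out. Of the replicate numbers, only those of the libraries numbered 3 deviated together (correlation 0.343, the others between −0.0555 and 0.029), 1 of 4 control-tagged libraries correlated best with its own number, and the replicate block called 1 gene and 0 of the family. With a prior count of 0.5, the 10 exact permutation tests kept their sign and missed 0.05, with larger differences for *Il6* (−0.76), *Osm* (0.59) and *Lif* (0.98). Depth limits the 3 ligands, with 27 to 39 counts each over all libraries.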
